A study of Mus musculus with 22 samples.

Results

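Genes of fatty acid uptake, oxidation and ketone use were followed in white adipose tissue (WAT) and striatum of mice after thyroid hormone (TH). The set was a fixed list of 40 genes that a row of both count tables names, read in a tissue where the mean normalised count over all libraries was above 10. All 40 passed that limit in WAT, where 17928 genes did, and 37 passed in striatum, where 15827 did. The members that did not pass in striatum were Fabp4, Cpt1b and Acaa1b, with means of at most 3.11 over the 10 libraries. Cd36 was just inside the limit there, with a mean of 10.2.

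The animals were wild-type C57BL/6J males of 8 weeks. The control libraries came from mice made hypothyroid with propylthiouracil (PTU), a drug that blocks thyroid hormone synthesis, for 2 weeks. WAT had 4 libraries each of PTU, TH 6 h and TH 24 h. Striatum had 2 PTU libraries, numbered 3 and 6, and 4 each of TH 12 h and TH 24 h. The labels of the TH libraries give the hormone and the time after it and do not mention PTU, and the study lists no PTU treatment for striatum, so for the striatum controls PTU is known from the labels and from nothing else. No label says that libraries of a group came from separate mice, so p-values measure the spread between these libraries, which may be technical. Sex-linked transcripts, given below, differed between the 2 striatum PTU libraries and among those of TH 12 h.

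Adipocytes take up fatty acids that lipoprotein lipase frees from circulating triglyceride, bind them to carrier proteins and activate them to acyl-CoA. Long acyl chains then enter mitochondria as carnitine esters and are shortened in cycles of dehydrogenation, hydration, a second dehydrogenation and thiolysis. Very long and branched chains are shortened first in peroxisomes, and PPARα, a nuclear receptor for fatty acids, is known as an activator of many of these genes. Ketone bodies are used in mitochondria after conversion back to acetyl-CoA, a route the brain depends on in fasting.

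Totals ran from 17285956 to 26946573 counts per library in WAT and from 8044701 to 10147160 in striatum. Libraries of WAT differed in their content of skeletal muscle. The sum of 18 skeletal muscle markers ran from 3030 to 674000 normalised counts over the PTU libraries, from 1290 to 122000 at 6 h and from 48700 to 361000 at 24 h, and no marker was at 0 in a group. PTU replicates 1 and 4, TH 6 h replicate 3 and all 4 TH 24 h libraries were muscle-rich (mean log2 CPM of the 18 genes above 5, CPM being counts scaled to a common library size). In striatum, TH 24 h replicate 2 stood apart, with a sum of 2240 over 8 striatal projection neuron markers against 16300 to 45100 in the other libraries, and with 24000 over 7 cortical excitatory neuron markers, the highest of the 10. Y-linked transcripts were at 6.84 normalised counts or fewer and Xist at 22100 or more in 6 striatum libraries labelled male, namely PTU 6, TH 12 h replicate 1 and all 4 of TH 24 h, so that label and count disagree there and the PTU group is mixed. In bulk tissue, fewer cells of a type and less RNA per cell cannot be told apart.

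Levels were set side by side per kilobase of annotated exon, with the exons of all transcripts of a gene merged. That length can exceed the length of the transcripts present, so the order of members is rough. In WAT of PTU mice the order was led by Fabp4, the adipocyte fatty acid carrier, at 54100 normalised counts per kilobase. Cd36, a fatty acid translocase of the plasma membrane, followed at 14200 and Lpl, lipoprotein lipase, at 14100. The lowest were Slc27a2 at 5.19 and Ppara at 12.2. In striatum of PTU mice, Oxct1, the mitochondrial enzyme that starts ketone body use, was highest at 567 and Bdh1, which interconverts the ketone bodies acetoacetate and 3-hydroxybutyrate, was next at 208. These values hold within a tissue, since the tables were made separately and near-identical rows occur in the WAT table but not in that of striatum. Etfa, a subunit of the electron transfer flavoprotein, had 3720 to 5250 normalised counts in WAT libraries and 11.0 to 31.3 in striatum libraries, and the part of read counting in that gap was not tested.

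Regulatory sequence is shown for 6 members. They are some of those whose counts moved at 24 h in WAT (Slc27a2, Cd36, Acadvl, Hadha, Acaa1a) and the paralogue of Acaa1a (Acaa1b). Each run is the 250 bases before a start site in the RefSeq promoter table (GRCm38.p6), 5′ to 3′ on the gene's strand. Capitals mark AGGTCA, the half-site of nuclear receptor elements, or its reverse complement TGACCT. The 33 members found there have 37 start sites, and 1 is shown per gene. The runs of Cd36, Slc27a2 and Acaa1a lie inside the annotated span of their genes, so other starts may lie further upstream.
Slc27a2, chr2:126552774-126553023, plus strand: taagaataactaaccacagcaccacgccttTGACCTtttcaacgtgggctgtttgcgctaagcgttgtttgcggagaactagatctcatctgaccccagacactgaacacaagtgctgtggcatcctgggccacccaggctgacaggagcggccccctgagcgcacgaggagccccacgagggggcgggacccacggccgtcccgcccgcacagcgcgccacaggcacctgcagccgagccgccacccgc
Cd36, chr5:17835897-17836146, minus strand: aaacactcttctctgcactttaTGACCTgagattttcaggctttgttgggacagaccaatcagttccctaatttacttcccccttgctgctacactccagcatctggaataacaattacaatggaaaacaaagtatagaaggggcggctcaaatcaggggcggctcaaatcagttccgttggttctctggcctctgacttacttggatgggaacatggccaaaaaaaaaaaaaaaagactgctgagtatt
Acadvl, chr11:70015429-70015678, minus strand: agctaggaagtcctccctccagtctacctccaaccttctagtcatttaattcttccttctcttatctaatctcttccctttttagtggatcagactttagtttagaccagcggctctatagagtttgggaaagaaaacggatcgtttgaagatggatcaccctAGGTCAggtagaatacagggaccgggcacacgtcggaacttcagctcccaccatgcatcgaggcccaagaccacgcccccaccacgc
Hadha, chr5:30154981-30155230, minus strand: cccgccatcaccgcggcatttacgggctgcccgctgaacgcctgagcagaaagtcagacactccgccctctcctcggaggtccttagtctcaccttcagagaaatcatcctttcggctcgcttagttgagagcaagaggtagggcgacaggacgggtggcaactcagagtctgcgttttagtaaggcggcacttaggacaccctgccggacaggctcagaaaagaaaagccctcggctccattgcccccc
Acaa1a, chr9:119341044-119341293, plus strand: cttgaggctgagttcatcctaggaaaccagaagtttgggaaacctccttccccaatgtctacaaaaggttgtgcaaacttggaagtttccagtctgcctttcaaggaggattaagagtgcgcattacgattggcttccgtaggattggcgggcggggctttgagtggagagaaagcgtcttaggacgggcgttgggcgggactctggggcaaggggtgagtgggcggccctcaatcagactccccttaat
Acaa1b, chr9:119157094-119157343, minus strand: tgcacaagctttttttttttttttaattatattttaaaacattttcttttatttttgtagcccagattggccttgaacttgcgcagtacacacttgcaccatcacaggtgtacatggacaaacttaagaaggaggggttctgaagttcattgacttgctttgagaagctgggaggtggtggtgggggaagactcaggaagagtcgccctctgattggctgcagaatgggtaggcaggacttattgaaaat
The half-site stands at bases −220 to −215 of Slc27a2, −228 to −223 of Cd36 and −87 to −82 of Acadvl, counted from the start site. Hadha, Acaa1a and Acaa1b hold none in these bases. Among the windows of 300 bases (250 before and 50 after the start site) that 33 of the 40 members have, AGGTCA on either strand was present in 16.2%, against 16.3% of all 32851 windows. The other members with it were Acadm, Cpt1a and Echs1. Acsl1, Acsl5, Acot2 and Hadhb, also called at 24 h, have windows without the half-site and are not printed. All called members with a half-site in their window are printed, so the runs above are not a fair sample of the members that moved. Direct repeats of the half-site with a spacer of 1 base (DR1) or 4 bases (DR4), searched on both strands and each containing the half-site, were in no member's window and in 0.0396% and 0.0152% of all windows. Hadha and Hadhb start 273 bases apart on opposite strands of chromosome 5, so that their windows overlap by 228 bases and share most of the Hadha run above. These matches are descriptions of letters and not of bound sites.

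At 6 h in WAT, 2 of 40 members, Ppara and Acaa1a, rose and none fell, a share of 5% against 7.23% of all genes tested (4.18% higher and 3.05% lower). A gene was called, here and below, at an adjusted p under 0.05 in edgeR's quasi-likelihood test with Benjamini-Hochberg adjustment over all genes of the tissue. At 24 h, 12 of 40 were called, 8 of them higher and 4 lower, a share of 30% against 17.1% of all genes (7.45% higher and 9.62% lower). The 40 were listed with earlier results of these data known, so shares of members, here and below, are descriptions only. The 4 that fell act at the entry of the pathway (Cd36, Lpl, Acsl1) or release fatty acids from acyl-CoA (Acot2), and the 8 that rose were Slc27a2, Acsl5, Cpt1b, Acadvl, Hadha, Hadhb, Acaa2 and Acaa1a. The median log2 change of the 40 was 0.05 at 6 h and -0.06 at 24 h, against -0.03 and -0.0020 over all genes. The members went both ways, with log2 changes at 24 h from -1.91 for Acsl1 to 2.78 for Slc27a2. With the PTU and 24 h libraries in a model of their own, 7 of the 12 calls were kept, and Slc27a2, Cpt1b, Acadvl, Hadha and Hadhb lost theirs (adjusted p from 0.0691 to 0.0957) with log2 changes that moved by at most 0.0010. The balance of directions was not stable. It was 3 higher and 8 lower without TH 24 h replicate 3, 5 higher and 7 lower without PTU replicate 4, 3 higher and 5 lower with the 2 groups alone, and 9 higher and 8 lower with DESeq2. In that order, 12.0%, 16.5%, 11.4% and 21.0% of all genes were called. The counts also depended on single libraries, with 4 called at 6 h without TH 24 h replicate 2, and 7 at 24 h when replicate 2 of PTU or of TH 24 h was left out. Of all genes, 7.82% were called in the first of these fits and 10.9% and 13.3% in the others. The PTU and 24 h libraries did not overlap for 11 members, a pattern seen in 19.3% of all genes, and the PTU and 6 h libraries for 5, seen in 13.9%.

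**Figure D1:**
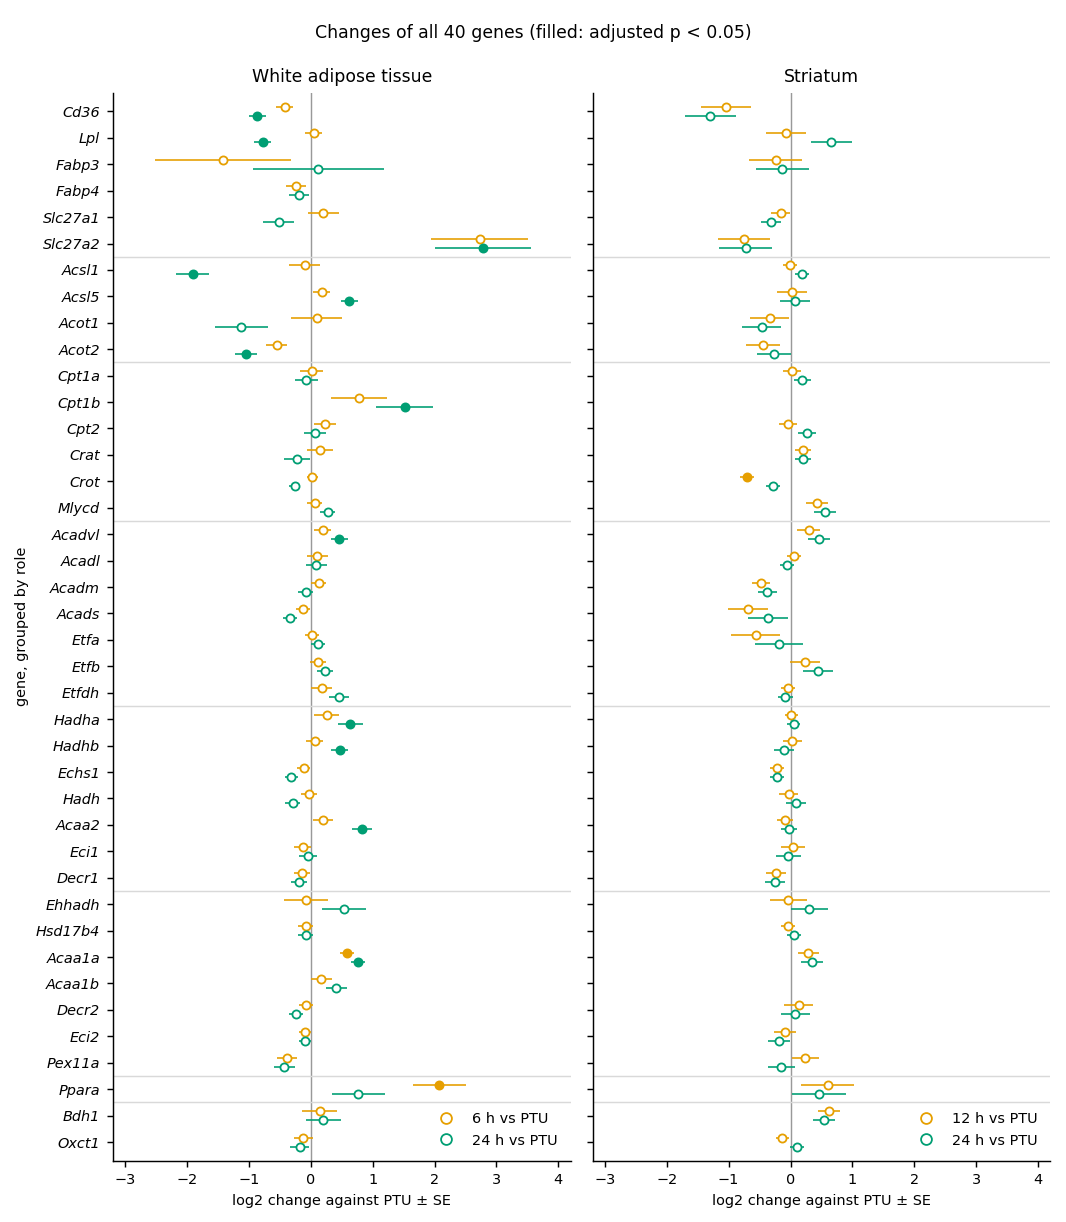
Log2 change against PTU (x axis, points) with its standard error (bars) for the 40 genes (y axis, grouped by role) in WAT at 6 and 24 h and in striatum at 12 and 24 h. Filled points passed the test at adjusted p under 0.05, which 2 and 12 members did in WAT and 1 and 0 in striatum.

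Of the 6 genes of fatty acid uptake and binding, 2 fell and 1 rose at 24 h, and none was called at 6 h. Cd36 had 44800, 63100, 53900 and 42900 normalised counts in PTU replicates 1 to 4, then 41400, 38200, 36200 and 37000 at 6 h, and 25000, 32000, 29800 and 25700 at 24 h. Every TH library lay below every PTU library, and every 24 h library below every 6 h library. The log2 change was -0.86 ± 0.14 (SE) at 24 h (adjusted p = 0.00151), while 6 h gave -0.42 ± 0.14 (adjusted p = 0.0881). At 6 h Cd36 was called in 2 of 9 alternative settings, listed with the methods, and in 0 of 12 fits without 1 library.

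Lpl had 123000, 188000, 136000 and 144000 in PTU, 143000, 140000, 153000 and 175000 at 6 h and 80400, 85000, 92000 and 86800 at 24 h. The 4 libraries of 24 h lay below all 8 others, and the 6 h libraries overlapped with PTU. Lpl fell by 0.78 ± 0.14 on the log2 scale from PTU to 24 h (adjusted p = 0.00284) and by 0.83 ± 0.14 from 6 to 24 h (adjusted p = 0.00544). The summed level of 8 adipocyte markers was also lower at 24 h, 227000 to 258000 against 315000 to 436000 in the PTU and 6 h libraries, with 5 of the 8 called lower than PTU. Its part in the fall of Cd36 and Lpl was not tested.

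Slc27a2, which activates very long chain fatty acids and transports them, had 10.6, 7.18, 33.4 and 27.1 in PTU, 94.0, 126, 193 and 113 at 6 h and 14.5, 276, 217 and 38.7 at 24 h. All 6 h libraries were above all PTU libraries, while at 24 h replicates 2 and 3 were above and replicates 1 and 4 lay in or near the PTU range. The change was 2.73 ± 0.78 on the log2 scale at 6 h (adjusted p = 0.0539), while 24 h gave 2.78 ± 0.78 (adjusted p = 0.0282). At 6 h it was called in 4 of 9 alternative settings and 3 of 12 fits without 1 library, and at 24 h in 6 of 9 and 8 of 12. The times thus differed little in size or support. The 24 h call was lost without PTU replicate 1 (2.56), PTU replicate 2 (2.52), TH 24 h replicate 2 (2.17) or TH 24 h replicate 3 (2.47). An antisense gene overlaps its exons, and without a stated strand setting the reads of the pair cannot be told apart.

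The other 3 uptake genes were not called. Fabp4 lay between 169000 and 303000 in the 12 libraries, and Slc27a1, a fatty acid transporter of adipocytes and muscle, between 2750 and 9900. Fabp3, the carrier of heart and skeletal muscle, had 856, 8.38, 27.1 and 685 in PTU, 44.7, 102, 342 and 103 at 6 h and 182, 821, 627 and 84.1 at 24 h. Its 2 high PTU libraries are the 2 muscle-rich ones, and its highest 6 h library is the muscle-rich one. At 24 h all 4 libraries were muscle-rich. There Fabp3 rose with the muscle marker sum over replicates 4, 1 and 2 (84.1, 182 and 821 at sums of 102000, 222000 and 361000). Replicate 3 departed from that order, with 627 at the lowest sum (48700).

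**Figure D2:**
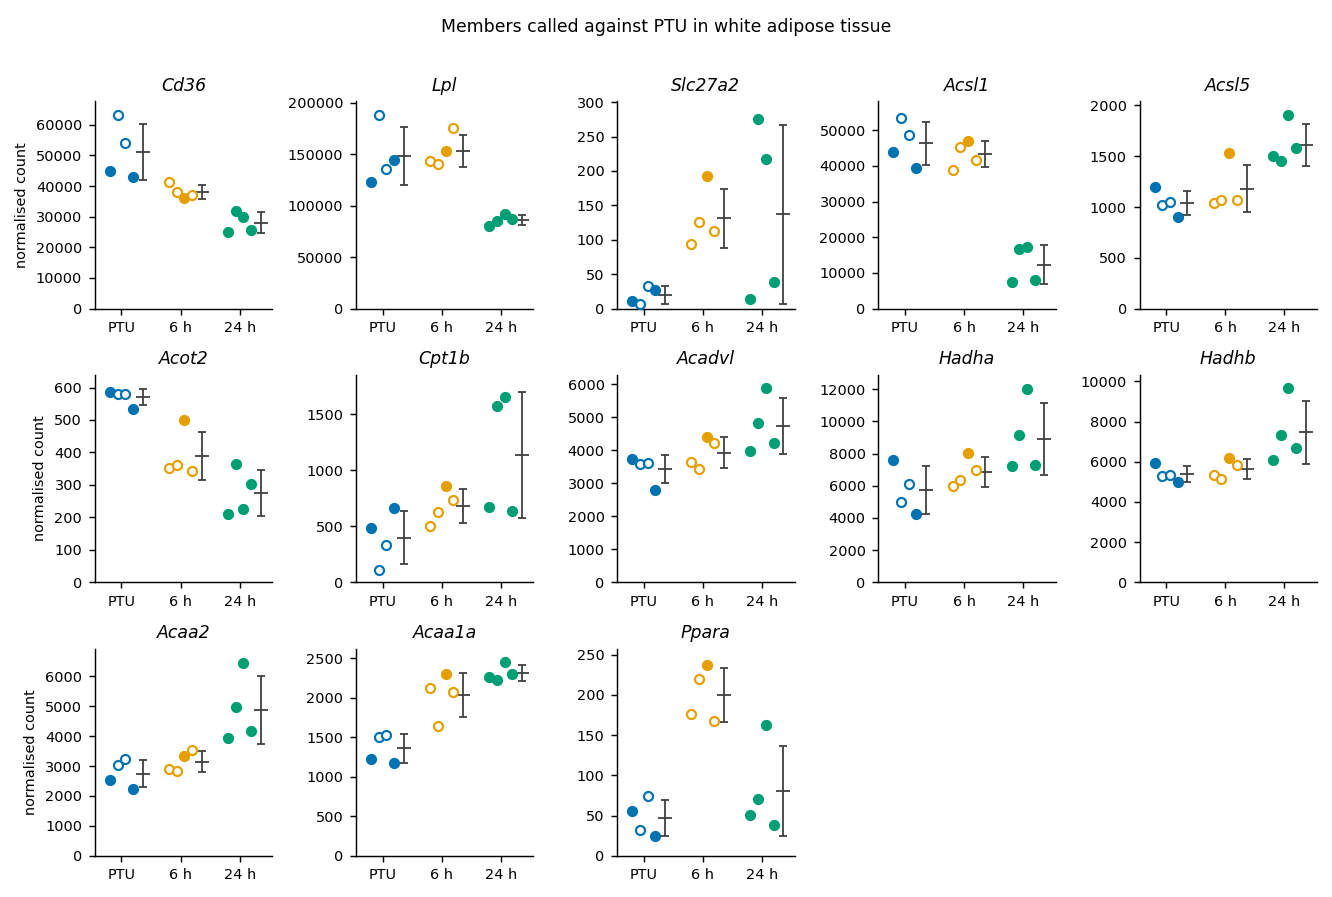
Normalised counts (y axis, from 0) of the 13 members called against PTU at 6 or 24 h in WAT, by group (x axis). Each point is 1 library, filled where skeletal muscle markers were high, and the bar gives mean ± SD of 4 libraries. All 24 h libraries of Acsl1, Lpl, Cd36 and Acot2 lie below the PTU libraries, and Slc27a2 and Cpt1b spread widely at 24 h.

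The 4 genes that activate fatty acids or hydrolyse acyl-CoA moved in both directions. Acsl1, the main acyl-CoA synthetase of adipocytes, had 43800, 53500, 48600 and 39500 in PTU, 38900, 45400, 47100 and 41700 at 6 h and 7360, 16800, 17300 and 8000 at 24 h. It overlapped with PTU at 6 h and was below all 8 other libraries at 24 h. Acsl1 fell by 1.91 ± 0.26 on the log2 scale at 24 h, to 0.266 of its PTU level (adjusted p = 0.000505), and by 1.81 ± 0.26 from 6 to 24 h (adjusted p = 0.00233). Both calls were kept without any 1 library.

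Acsl5, another acyl-CoA synthetase, had 1200, 1020, 1050 and 905 in PTU, 1040, 1070, 1530 and 1070 at 6 h and 1500, 1450, 1910 and 1580 at 24 h. It was above all PTU libraries at 24 h (log2 change 0.62 ± 0.14, adjusted p = 0.0095), opposite to Acsl1. Its exons overlap Zdhhc6 on the other strand.

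Acot2, a mitochondrial acyl-CoA thioesterase, had 587, 581, 579 and 534 in PTU, 351, 360, 501 and 343 at 6 h and 209, 363, 227 and 302 at 24 h. All 8 TH libraries were below all PTU libraries, and the change was -1.05 ± 0.17 at 24 h (adjusted p = 0.00165), while 6 h gave -0.55 (adjusted p = 0.0709). At 6 h Acot2 was called in 3 of 9 alternative settings and in 2 of 12 fits without 1 library. Acot1, its cytosolic paralogue, had 223, 172, 205 and 151 in PTU, 105, 126, 455 and 120 at 6 h and 60.8, 120, 87.0 and 77.5 at 24 h. It too was below all PTU libraries at 24 h, but TH 6 h replicate 3 was the highest of the 12, and it was not called (-1.12 ± 0.43 at 24 h, adjusted p = 0.0899). The coding sequences of the pair are 95.6% identical over 1236 aligned bases with a longest identical run of 273 bases, so that reads can match both and the split between them is uncertain.

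Of the 6 carnitine shuttle genes only Cpt1b was called, at 24 h. Cpt1b, the muscle and brown fat form of carnitine palmitoyltransferase 1 at the outer mitochondrial membrane, had 487, 107, 334 and 662 in PTU, 504, 627, 861 and 737 at 6 h and 672, 1580, 1660 and 633 at 24 h. The groups overlapped, with replicates 2 and 3 of 24 h far above the other 10 libraries. The log2 change was 0.78 at 6 h (adjusted p = 0.301), and 24 h gave 1.52 ± 0.46 (adjusted p = 0.0397). It stayed called in 5 of 12 fits that left out 1 library, and was lost without PTU 2 or 3, TH 6 h 1, 2 or 4, or TH 24 h 2 or 3, at log2 changes of 1.21 to 1.52. A predicted gene overlaps its exons on the same strand.

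Cpt1a, the liver-type form, had 437, 611, 643 and 421 in PTU, 597, 507, 627 and 406 at 6 h and 412, 604, 546 and 450 at 24 h. These groups overlapped throughout, with log2 changes of 0.01 ± 0.18 and -0.07 ± 0.18. The other shuttle members were Cpt2, the inner membrane transferase, Crat and Crot, which act on short and medium chains, and Mlycd, which removes the CPT1 inhibitor malonyl-CoA. Their log2 changes at 24 h lay between -0.26 (Crot, adjusted p = 0.0596) and 0.27 (Mlycd, adjusted p = 0.155), and none was called at either time.

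In the mitochondrial cycle, 1 of 7 genes of the acyl-CoA dehydrogenases and electron transfer and 3 of 7 of the later steps rose at 24 h, and none of these 14 was called at 6 h. Acadvl, the dehydrogenase for very long chains, had 3730, 3600, 3610 and 2800 in PTU, 3660, 3420, 4410 and 4210 at 6 h and 3980, 4820, 5890 and 4220 at 24 h. The 24 h libraries were above all PTU libraries, by 0.46 ± 0.14 on the log2 scale (adjusted p = 0.0419). The call held in 6 of 12 fits without 1 library and was lost without PTU 2, 3 or 4, TH 6 h 1, or TH 24 h 2 or 3 (0.34 to 0.49). The exons of Acadvl overlap Dvl2 on the other strand.

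Hadha and Hadhb encode the α and β subunits of the trifunctional protein, which carries out the last steps of the cycle on long chains. Hadha had 7630, 4980, 6080 and 4220 in PTU, 5960, 6380, 8060 and 6990 at 6 h and 7250, 9160, 12000 and 7280 at 24 h. Hadhb had 5960, 5310, 5330 and 4990 in PTU, 5340, 5130, 6210 and 5830 at 6 h and 6100, 7320, 9690 and 6700 at 24 h. The groups touched for Hadha, where PTU replicate 1 was above 2 of the 24 h libraries, and did not overlap for Hadhb.

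The log2 changes at 24 h were 0.64 ± 0.20 for Hadha (adjusted p = 0.0476) and 0.47 ± 0.14 for Hadhb (adjusted p = 0.0355). Hadha was called in 3 of 12 fits without 1 library, namely those without PTU 1, TH 24 h 1 or TH 24 h 4, and otherwise had 0.47 to 0.67. Hadhb was called in 7 of 12 and lost without PTU 2, 3 or 4 or TH 24 h 2 or 3 (0.32 to 0.48). Exons of Hadha overlap Garem2 on the other strand. Replicate 3 was the highest 24 h library for Acadvl, Hadha and Hadhb alike.

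Acaa2, the mitochondrial thiolase for medium and long chains, had 2520, 3030, 3230 and 2240 in PTU, 2890, 2850, 3320 and 3550 at 6 h and 3930, 4980, 6450 and 4160 at 24 h. Every 24 h library was above the other 8. It rose by 0.83 ± 0.17 on the log2 scale from PTU (adjusted p = 0.00537), a call kept in all 12 fits, and by 0.63 ± 0.17 from 6 h (adjusted p = 0.0388). The change from 6 h was lost without any of the 4 TH 6 h libraries or without TH 24 h 2 or 3 (0.45 to 0.68).

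The other 10 mitochondrial genes were not called at either time. They are the long, medium and short chain dehydrogenases Acadl, Acadm and Acads, the electron transfer proteins Etfa, Etfb and Etfdh, the short chain hydratase Echs1 and dehydrogenase Hadh, and the auxiliary enzymes for unsaturated chains Eci1 and Decr1. At 24 h their log2 changes ran from -0.34 for Acads to 0.46 for Etfdh. Echs1 was below PTU in all 4 libraries (-0.32 ± 0.10, adjusted p = 0.0543) while its neighbours in the cycle Hadha and Hadhb rose.

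Of the 7 peroxisomal genes, only Acaa1a was called, at both times. Acaa1a, a peroxisomal thiolase, had 1220, 1510, 1530 and 1180 in PTU, 2130, 1650, 2300 and 2070 at 6 h and 2260, 2230, 2460 and 2300 at 24 h. All 8 TH libraries were above all PTU libraries. It rose by 0.58 ± 0.12 on the log2 scale at 6 h (adjusted p = 0.0111) and by 24 h the rise was 0.77 ± 0.12 (adjusted p = 0.00103), calls that no single library undid.

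Acaa1b, a second peroxisomal thiolase whose coding sequence is 96.5% identical to that of Acaa1a, had 923, 1370, 1190 and 944 in PTU, 1250, 973, 1450 and 1310 at 6 h and 1190, 1750, 1680 and 1260 at 24 h. Its groups overlapped (0.41 ± 0.17 at 24 h, adjusted p = 0.119). The sequence runs of the pair printed above come from windows that match at 63.7% of aligned bases. Reads within the longest identical coding run, 327 bases, cannot be assigned to one of them, so the difference between the pair is uncertain. Exons of Acaa1a also overlap Myd88, and those of Acaa1b overlap Dlec1, on the other strand.

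Ehhadh, the peroxisomal bifunctional enzyme, had 2000, 1260, 1220 and 1080 in PTU, 1150 to 1600 at 6 h and 907, 3000, 3030 and 1140 at 24 h, and was not called (0.54 ± 0.35). Pex11a, which takes part in peroxisome division, had 1080 to 1940 in PTU and 1010 to 1270 at 24 h (-0.43 ± 0.17, adjusted p = 0.102). Hsd17b4, Decr2 and Eci2, which handle branched and unsaturated chains, had log2 changes from -0.24 to -0.08 at 6 and 24 h, none of them called.

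Ppara itself had 55.7, 32.3, 74.0 and 24.6 in PTU, 176, 220, 237 and 168 at 6 h and 51.1, 70.8, 162 and 38.7 at 24 h. Every 6 h library was above every PTU and every 24 h library, while 24 h overlapped with PTU. It rose 4.22-fold at 6 h (log2 2.08 ± 0.43, adjusted p = 0.0125) in a call kept in all 12 fits. At 24 h the change was 0.77 ± 0.43 (adjusted p = 0.237), and from 6 to 24 h it was -1.31 (adjusted p = 0.073).

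Neither ketone use gene was called in WAT. Oxct1 lay between 3630 and 6060 and Bdh1 between 31.1 and 84.6 in the 12 libraries. From 6 to 24 h, 3 of 40 members were called, Lpl and Acsl1 lower and Acaa2 higher, a share of 7.5% against 7.41% of all genes (3.07% higher and 4.35% lower). Leaving out PTU replicate 1 gave 6 calls (11.4% of all genes), and leaving out PTU replicate 4 gave 5 (9.42%).

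Skeletal muscle content was set beside these values in several ways. Added as a term beside the groups, the muscle level was associated with 353 of 17928 genes (1.97%) and with 0 of 40 members, 2 of which had an unadjusted p under 0.05. The steepest was Fabp3, at 0.50 ± 0.14 log2 units per log2 unit of the muscle level (adjusted p = 0.153), followed by Cpt1b at 0.14 ± 0.06 (adjusted p = 0.626). With that term 11 of the 12 calls of 24 h were kept and Hadha was not (0.63).

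Within the muscle-rich libraries alone (PTU 1 and 4 against the 4 of 24 h), 1 member, Acaa1a, was called at 24 h (0.94), as were 3.11% of all genes. There Acsl1 had -1.76, Cd36 -0.64, Lpl -0.64, Acot2 -1.03, Slc27a2 2.88, Acaa2 1.03 and Cpt1b 0.98, each in the direction of all libraries. Within the muscle-poor libraries of PTU and 6 h, Ppara kept its call (1.82) and Acaa1a did not (0.40).

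Markers of brown adipocytes moved with the hormone as well. Their sum over 10 genes ran from 1980 to 3460 in PTU, 5500 to 10300 at 6 h and 8280 to 23200 at 24 h, and 6 of the 9 tested rose at 24 h and 1 fell. Ucp1, the uncoupling protein that defines brown and beige fat, had 4.8, 20.4, 268 and 101 in PTU, 1640, 2440, 3940 and 3110 at 6 h and 2880, 11600, 12400 and 3320 at 24 h. The 24 h replicates with most Ucp1, 2 and 3, were the same in which Slc27a2, Cpt1b, Ehhadh and Fabp3 were highest and in which Acsl1 was higher than in the other two. The called genes Acadvl, Hadha, Hadhb and Acaa2 were also higher in these libraries than in the other two of the group, as was Cd36. Replicate 3 had the lowest muscle marker sum of the 24 h group, 48700, and replicate 2 the highest, 361000. The part of brown adipocyte content in the members' changes was not tested.

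**Figure D3:**
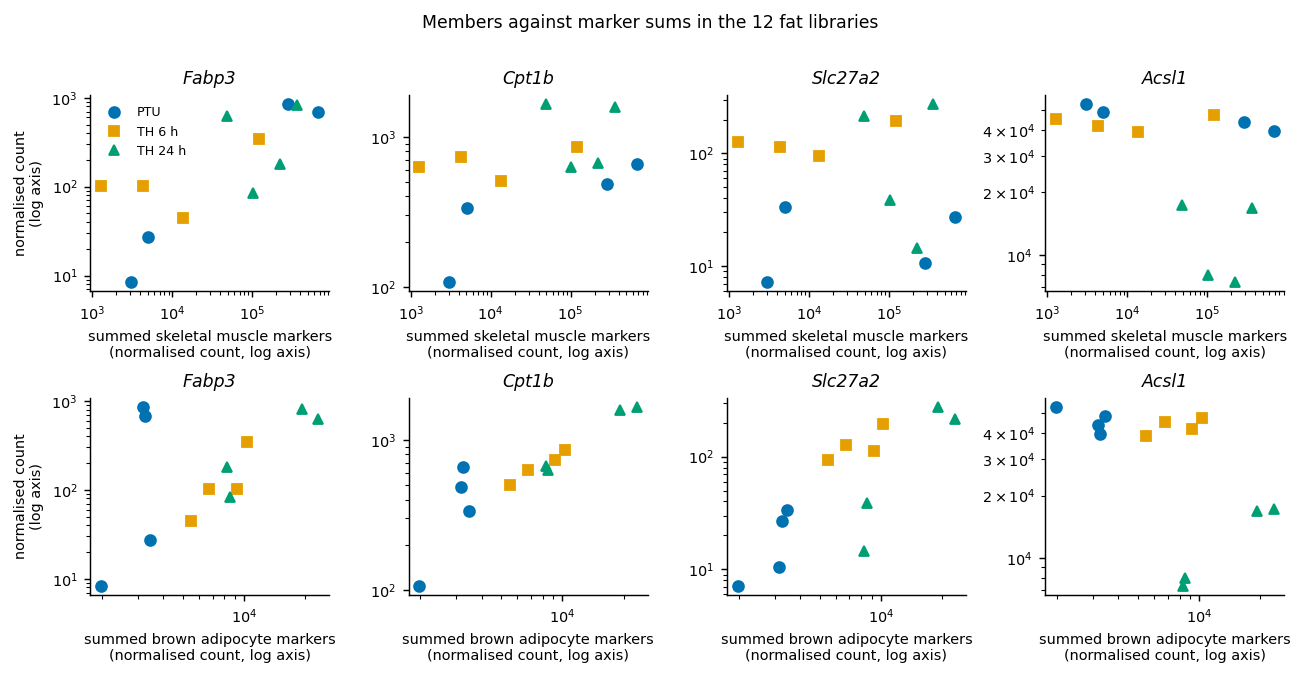
Normalised counts of Fabp3, Cpt1b, Slc27a2 and Acsl1 (y axes, log scale) against the summed markers of skeletal muscle (upper row) and brown adipocytes (lower row, x axes on log scales) in the 12 WAT libraries, 1 point each. The 2 libraries of 24 h with the highest brown sums, 19200 and 23200, hold the 2 highest counts of Cpt1b and Slc27a2.

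Other genes of the same pathways were read in WAT as well, from a list drawn up with earlier results of these data known. The shares below describe that list and do not measure how often such genes respond. Of 58 such genes, 56 were tested, 8 rose and 2 fell at 6 h, a share of 17.9% against 7.23% of all genes, and 14 rose and 9 fell at 24 h, a share of 41.1% against 17.1%. Among the 8 with the largest changes was Acot11, a thioesterase known from brown fat, which rose from 49.2 ± 14.9 (SD, n = 4) in PTU to 526 ± 161 at 6 h and 1820 ± 711 at 24 h. Ppargc1a, a coactivator of mitochondrial and PPAR target genes, rose from 74.4 ± 12.4 to 640 ± 55.5 at 6 h and was at 387 ± 92.0 at 24 h, below the 6 h level (adjusted p = 0.0199).

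Ucp3, a mitochondrial carrier of muscle and brown fat, rose from 498 ± 62.1 to 1640 ± 263 and 2730 ± 549. Pdk4, the kinase that turns off pyruvate dehydrogenase, rose to 10400 ± 8300 at 24 h from 1530 ± 731 (log2 2.77 ± 0.65, adjusted p = 0.012), with 24 h libraries from 2630 to 18200. Acacb, which makes the malonyl-CoA that inhibits CPT1, rose from 4390 ± 2490 to 12700 ± 3840 at 24 h (adjusted p = 0.0179).

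Slc16a1, a carrier of lactate and ketone bodies, fell from 1220 ± 112 to 627 ± 78.9 at 6 h and rose to 2870 ± 698 at 24 h. Its relative Slc16a7 fell at 24 h, from 629 ± 99.3 to 295 ± 47.5, and Acot4, a peroxisomal thioesterase, from 79.3 ± 7.31 to 27.1 ± 8.66.

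In striatum few members passed the test. At 12 h, 1 of 37 tested was called, a share of 2.7% against 0.96% of all genes (0.227% lower), and at 24 h none was, against 0.348%. At 24 h 6 of 37 members had an unadjusted p under 0.05 in edgeR, as did 1524 of 15827 genes. DESeq2 called no member and 1.28% of all genes at that time. The call at 12 h was Crot, the peroxisomal carnitine octanoyltransferase, with 456 and 407 in PTU, 286, 251, 257 and 265 at 12 h and 380, 294, 362 and 379 at 24 h. Every 12 h library was below both PTU libraries and so was every 24 h library.

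Crot fell by 0.70 ± 0.12 on the log2 scale at 12 h (adjusted p = 0.0257), while 24 h gave -0.28 ± 0.12 (adjusted p = 0.468). It stayed called in 5 of 10 fits that left out 1 library and was lost without PTU 3 (-0.63), PTU 6 (-0.79) or TH 12 h 2, 3 or 4 (-0.69, -0.70 and -0.71). The summed striatal projection neuron markers were also lower at 12 h, 16300 to 27300 against 30900 and 45100 in PTU, and the 7 cortical excitatory neuron markers higher, 9660 to 15200 against 4090 and 7480. Their part in the fall of Crot was not tested. The exons of Crot overlap a predicted gene on each strand. From 12 to 24 h, 0 members were called in edgeR, as were 0% of all genes. An unadjusted p under 0.05 was seen in 4 of 37 members and in 2309 of 15827 genes. DESeq2 called 1 member and 1.65% of all genes. Without TH 24 h replicate 2, the library that stood apart, 2 members were called at 12 h, 0 at 24 h and 1 from 12 to 24 h. The shares of all genes called also rose then, to 7.93%, 0.725% and 0.492%.

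Bdh1 had 883 and 730 in PTU, 1170, 1340, 1230 and 1230 at 12 h and 952, 1520, 987 and 1240 at 24 h. All 8 TH libraries were above both PTU libraries, and it did not pass the test (0.62 ± 0.18 at 12 h, adjusted p = 0.0991, while 24 h gave 0.54 ± 0.18, adjusted p = 0.348). Oxct1 had 2120 and 2090 in PTU, 1720 to 2020 at 12 h and 2120 to 2570 at 24 h (-0.13 and 0.11). Non-overlap with 2 control libraries is common here: it was seen in 36.4% of all genes at 12 h and 18.2% at 24 h.

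Lpl in striatum had 442 and 510 in PTU, 593, 427, 425 and 366 at 12 h and 1000, 426, 1020 and 559 at 24 h. Replicates 1 and 3 of 24 h stood above all others (0.66 ± 0.33, adjusted p = 0.57). Their striatal projection neuron marker sums, 39400 and 42600, were also above those of replicates 2 and 4, 2240 and 20000. The PTU libraries, with less Lpl, had sums of 30900 and 45100. The part of cell content in the striatum change of Lpl, and in its difference from WAT below, was not tested. Cpt1a had 285 and 349 in PTU, 283 to 370 at 12 h and 318 to 382 at 24 h, while Cpt1b had 0 in 6 of the 10 striatum libraries. Acot1 and Acot2 lay between 21.3 and 72.3, and Acaa1a between 137 and 224 with Acaa1b at 1.96 or below.

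Of the pathway genes outside the list, Acot11 rose in striatum too, from 57.4 and 59.7 in PTU to 135 to 163 at 12 h (log2 1.31 ± 0.17, adjusted p = 0.0155) and 114 to 161 at 24 h (1.30 ± 0.17, adjusted p = 0.0155). It was the only one of 52 called at 12 h (1.92% against 0.96% of all genes), and Abcd2, a peroxisomal transporter of very long chain fatty acids, was the second at 24 h (3.85% against 0.348%). Abcd2 rose there by 1.05 ± 0.16 and fell in WAT by 0.66 ± 0.12. The shares are those of a list drawn up with earlier results of these data known.

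**Figure D4:**
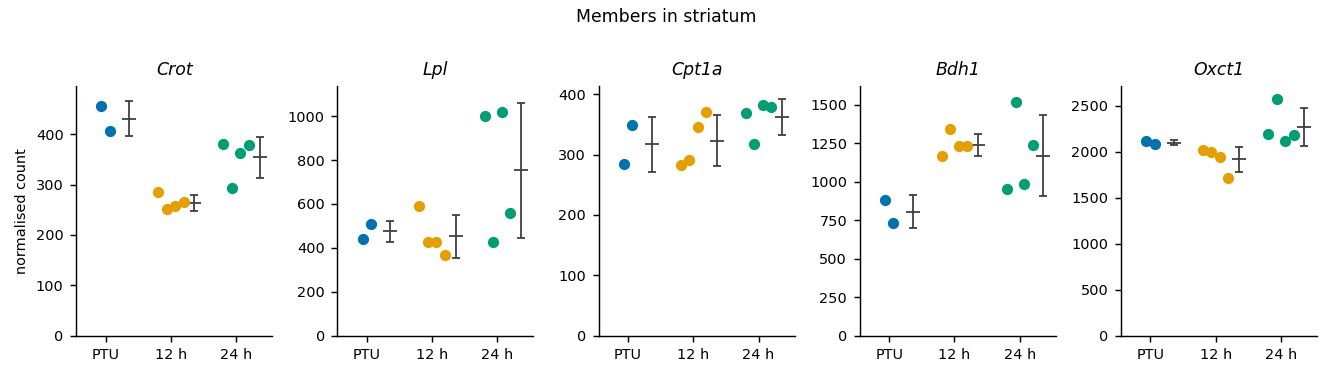
Normalised counts (y axis, from 0) of Crot, Lpl, Cpt1a, Bdh1 and Oxct1 in striatum by group (x axis). Each point is 1 library and the bar gives mean ± SD of 2 PTU or 4 TH libraries. The 12 h libraries of Crot, 251 to 286, lie below the PTU libraries.

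The response at 24 h was compared between tissues in 1 model over the 22 libraries and the 13085 genes tested in both. It differed for 4 of 37 members, a share of 10.8% against 4.88% of all genes. Acsl1 fell in WAT and was at 0.18 in striatum, a difference of -2.03 ± 0.34 (adjusted p = 0.00134). Lpl differed by -1.38 ± 0.34 (adjusted p = 0.0232), Acaa2 by 0.90 ± 0.22 (adjusted p = 0.023) and Slc27a2 by 3.56 ± 1.00 (adjusted p = 0.0428). The count was 2 without WAT PTU replicate 2 (3.13% of all genes) and 3 without striatum TH 24 h replicate 2 (4.67%). It was 1 without striatum PTU 3 (1.8%) or PTU 6 (1.49%). The difference of Acsl1 was called in all 22 fits without 1 library, that of Slc27a2 in 8. The differences of Lpl, Acaa2 and Slc27a2 lost their calls with the 4 groups alone (adjusted p = 0.0784, 0.0781 and 0.132), and that of Acsl1 did not. RNA extraction differed between the tissues, as did the occurrence of near-identical rows, so handling and tissue cannot be told apart in these differences. In striatum, PTU 6 and every TH 24 h library had high Xist and few Y-linked transcripts, while PTU 3 and all WAT libraries did not. Sex is thus partly mixed with the hormone in the striatum change. No Y-linked term was used in this comparison, so its part was not tested.

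**Figure D5:**
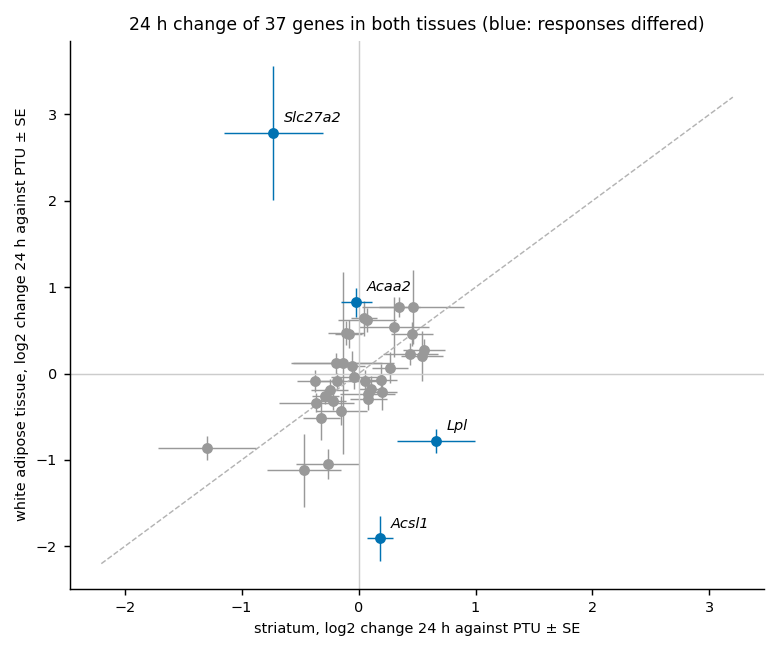
Log2 change at 24 h against PTU in WAT (y axis) and striatum (x axis) for the 37 members tested in both, with standard errors as bars and equality as a dashed line. Blue points, Acsl1, Lpl, Acaa2 and Slc27a2, are the 4 whose changes differed between tissues in the test.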

How the data were processed

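WAT RNA was extracted with Trizol, striatum RNA on RNeasy columns, and both were made into SENSE total RNA libraries. The authors deposited raw counts per gene symbol, 1 table per tissue. Per their methods, reads were aligned to GRCm38 (mm10) with Bowtie (Bowtie2 2.2.6.2 in the processing notes), low-quality alignments were dropped, and htseqcount gave the reads of each gene. Annotation release and strand setting are not given in the sources used here. In WAT, 235 pairs of rows with means above 100 agreed within 2% in every library (89 rows copied another, no member among them), and 0 pairs did in striatum. Such rows arise where a read with several matches is counted at each gene, yet the stated quality limit would remove those reads. How they were counted is therefore uncertain, and members with close paralogues or pseudogenes are uncertain too. Rows turned into dates, 15 in WAT and 14 in striatum, held at most 0.201% of a library and were left out.

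Counts were tested in R 4.3.3 with edgeR 4.0.16 (TMM factors, quasi-likelihood F test, two-sided), the 3 groups of a tissue in 1 model, for genes with a mean normalised count above 10. A normalised count is a count scaled to the mean effective library size of its tissue. Benjamini-Hochberg adjustment covered all genes tested, and errors of log2 changes are their size over the square root of F. The skeletal muscle level is the mean log2 CPM (prior count 2) of 18 markers. The tissue comparison joined symbols of both tables, 612 of them through RefSeq synonyms, and has the interaction term. Alternatives were DESeq2 1.42.0, DESeq2 size factors, no filter, a replicate block, the compared groups alone, mitochondrial rows out of the library sizes, copied rows left out, a muscle term, a Y-linked term and each library left out. Muscle-rich and muscle-poor libraries alone were added after seeing the data. Coordinates and overlaps come from GENCODE M21, promoters from RefSeq (33 of 40 members matched; Lpl, Fabp4, Cpt1b, Crat, Acaa2, Decr1 and Hsd17b4 were not), and coding sequences were aligned with Biopython 1.88. The test was run on simulated counts first. No 2 replicates matched within sampling noise (chi-square per degree of freedom at least 3.72).

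The members, the pathway list and the marker lists were chosen with earlier results of these data known. Values in every library are given for members called against PTU and for the pairs Cpt1a and Cpt1b, Acot1 and Acot2, and Acaa1a and Acaa1b. Of the 58 other pathway genes the 8 with the largest called change are named. Abcd2, Fabp3, Bdh1, Ehhadh, Lpl in striatum and Ucp1 were added after their values were seen.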

Additional observations from a re-analysis of the deposited data

Results flagged for a closer look

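Single libraries stood far from the other 3 of their group for 11 of the 194 sets of 4 libraries examined, where chance gives about 9.7. In WAT PTU these were replicate 4 for Acot2 (534 normalised counts against 579 to 587) and Acadvl (2800 against 3600 to 3730) and replicate 2 for Echs1 (7250 against 5960 to 6080). In WAT TH 6 h they were all replicate 3, with Acsl5 at 1530 (others 1040 to 1070), Acot1 at 455 (105 to 126) and Acot2 at 501 (343 to 360). That library is the muscle-rich one of its group and had the highest stratified epithelium marker sum of the 12, 2950. The part of either in these values was not tested. In striatum they were Slc27a1 at 290 in TH 12 h replicate 1 (others 411 to 427) and Eci2 at 211 in TH 12 h replicate 4 (181 to 186). The other striatum cases were all in TH 24 h replicate 2, the library with few striatal projection neuron transcripts: Hadh at 149 (222 to 230), Eci1 at 59.4 (76.2 to 78.2) and Oxct1 at 2570 (2120 to 2190).

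The change at 24 h differed between WAT and striatum, in the interaction term over 22 libraries, for Lpl (-1.38 on the log2 scale), Slc27a2 (3.56), Acsl1 (-2.03) and Acaa2 (0.90). With the 4 groups alone, only Acsl1 of these kept its call.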

How the results depend on the processing

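No called change of a named member turned direction under the alternatives run. The number of members called, 2 at 6 h in WAT, was 5 with DESeq2 and 4 with the 2 groups alone, and ran from 2 to 4 without 1 library. The share of all genes called was 12.0% with DESeq2 and 4.65% with the 2 groups alone, so counts of members are not comparable between settings. At 24 h, 12 (8 higher, 4 lower) became 17 with DESeq2 (9 higher, 8 lower), 7 with a replicate block (Slc27a2, Cpt1b, Acadvl, Hadha and Hadhb lost, as with the 2 groups alone, which gave 8) and 1 in muscle-rich libraries alone (6 libraries, chosen after seeing the data), with 7 to 14 without 1 library. Of all genes, 21.0% were called with DESeq2, 12.9% with the block, 11.4% with the 2 groups alone and 3.11% in muscle-rich libraries. From 6 to 24 h, 3 became 10 with DESeq2 (12.1% of all genes) and 6 with the 2 groups alone (13.6%), with 2 to 6 without 1 library. In muscle-rich libraries alone, replicate 3 was the only library of 6 h, and calls there carry no weight. The log2 changes of Lpl, Acsl1 and Acaa2 were -0.82, -1.9 and 0.56 in those libraries. In striatum, 1 at 12 h became 2 (1 higher, 1 lower) with DESeq2 or with the 2 groups alone and 0 with the replicate block (0 to 2 without 1 library). Of all genes, 5.43%, 9.05% and 0% were called in these settings. There 0 at 24 h stayed 0, and 0 from 12 to 24 h became 1 with DESeq2 (1.65% of all genes), with 0 to 1 without 1 library. The muscle term gave 0 members, and 1 with DESeq2 (2.47% of all genes) or with no filter (1.35%), with 0 to 1 without 1 library. The difference between tissues gave 4, and 2 with no filter, 1 with the 4 groups alone and 1 with the replicate block, Acsl1 in each, where Lpl, Acaa2 and Slc27a2 had adjusted p = 0.0551, 0.353 and 0.327 with the block (1 to 5 without 1 library). In that comparison 1.79% of all genes were called with no filter, 2.11% with the 4 groups alone and 0.627% with the block. The cause of the differences between settings was not tested, except that the subsets hold fewer libraries. Same-numbered libraries did not deviate together (r from -0.472 to 0.394 in WAT and from -0.395 to 0.267 in striatum, with 2 of 12 and 2 of 9 correlating best with their own number). With so few libraries per group this check cannot exclude a shared batch, and the labels give no pairing. Taking mitochondrial rows out of the library sizes or using DESeq2 size factors removed none of the calls given above, but added some. At 24 h in WAT the count became 14 (8 higher, 6 lower) and 13 (8 higher, 5 lower), with 17.4% of all genes called in each. From 6 to 24 h it became 4 with mitochondrial rows out (7.81% of all genes). With 2 PTU libraries, striatum changes are limited by those 2. Counts near the filter, such as Cd36 and Ppara in striatum, are too low to show small changes.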
